A study of Homo sapiens with 14 samples.

Results

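The loci of 8 genes of fibroblast growth factor (FGF) signalling were examined for the BAF complex and SOX2 in human embryonic stem cells (hESCs). They comprise the receptor genes FGFR1, FGFR2, FGFR3 and FGFR4, the secreted ligands FGF2, FGF4 and FGF8, and the intracellular family member FGF13. Each locus was the hg38 gene body in GENCODE release 44 with 60 kb on each side, and all 8 members were found among 20033 protein-coding genes for which a window was built in the same way. The loci were selected on peak counts and SOX2 folds of these same lists, the primed SOX2 site of highest fold in FGFR1 among them. Counts and folds at the loci are therefore given as a description, without a test.

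The cells were WIBR3, an established hESC line, in all samples. Naïve cells were kept in 5i/L/A, a serum-free medium with kinase inhibitors, LIF and activin A, and had been converted from primed cells and expanded as polyclonal cultures. Primed cells were kept in conventional hESC medium with serum and FGF2, and both states were grown on inactivated mouse embryonic fibroblasts. ChIP-seq, the sequencing of immunoprecipitated chromatin, was done for BRG1 and BRM, the alternative ATPases of the BAF chromatin remodelling complex, for its scaffold subunit BAF155, and for the transcription factor SOX2. There are 14 samples, 4 of them inputs not analysed here, and 10 with 1 list each. Groups hold 1 library, except SOX2 with 2 per state. The 2 SOX2 lists of a state had identical coordinates and were counted as 1 sample, so no count below has a replicate error.

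FGF ligands bind receptor tyrosine kinases at the cell surface, which signal through adaptor proteins to the MEK and ERK kinases. Primed hESCs depend on this signal and are kept with added FGF2, whereas media for naïve cells block MEK. Fgf4 is a classical target of SOX2 and OCT4 in pluripotent cells of the mouse, through an enhancer in its last exon.

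On chromosomes 1 to 22, X and Y the naïve lists held 57884 BRG1, 62338 BAF155, 17413 BRM and 1940 SOX2 peaks, and the primed lists 15611 BRG1, 58352 BAF155 and 9290 SOX2 peaks. The primed BRM list held 167 peaks and none at the 8 loci. Read totals were not used here and list length was not set against depth, and a locus without a peak may still be bound below the calling threshold. Around marker genes of the states, 6 of 6 naïve markers had more naïve-only than primed-only BAF regions, and 5 of 6 primed markers had the reverse. The exception was CD24, with 6 naïve-only and 2 primed-only regions. By comparison, 66.1% of all coding windows had more naïve-only and 21.2% more primed-only regions. For BAF regions, the BRG1 and BAF155 peaks of each state were merged, and a region was called common when an overlap with the other state covered at least 25% of either, and naïve-only or primed-only otherwise.

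In naïve cells all 8 loci held BRG1 and BAF155 peaks, 7 held BRM and 2 held SOX2. BRG1 peaks numbered 93 in all, from 3 at FGF13 to 18 at FGFR3, and 93.7% of all coding windows held at least 1. BAF155 peaks numbered 85, from 4 at FGF13 to 14 at FGFR2, where 93.0% of windows held at least 1. BRM peaks numbered 26, with 5 each at FGFR3 and FGF2 and none at FGF13, against 70.2% of windows with any. The 4 naïve SOX2 peaks lay at FGFR1 and FGF2, with 2 at each, and 13.2% of windows held one.

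In primed cells all 8 loci held BRG1 and BAF155 peaks and 7 held SOX2. BRG1 peaks numbered 27, from 1 at FGF8 to 5 at FGF13, and 72.0% of all coding windows held any. BAF155 peaks numbered 66, from 3 at FGFR4 to 15 at FGFR1, against 93.7% of windows with any. Primed SOX2 peaks numbered 19, with 5 at FGFR1, 4 each at FGFR2 and FGF13, 2 each at FGFR3 and FGF2, and 1 each at FGF4 and FGF8, whereas 42.6% of windows held at least 1. FGFR4 was the locus without a SOX2 peak in either state. A primed peak without a naïve one was found at 5 of the 8 loci, against 33.1% of windows. The primed SOX2 list was the longer one (9290 against 1940 peaks). With equal list lengths the loci held 4 naïve and 4 primed SOX2 peaks.

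**Figure D1:**
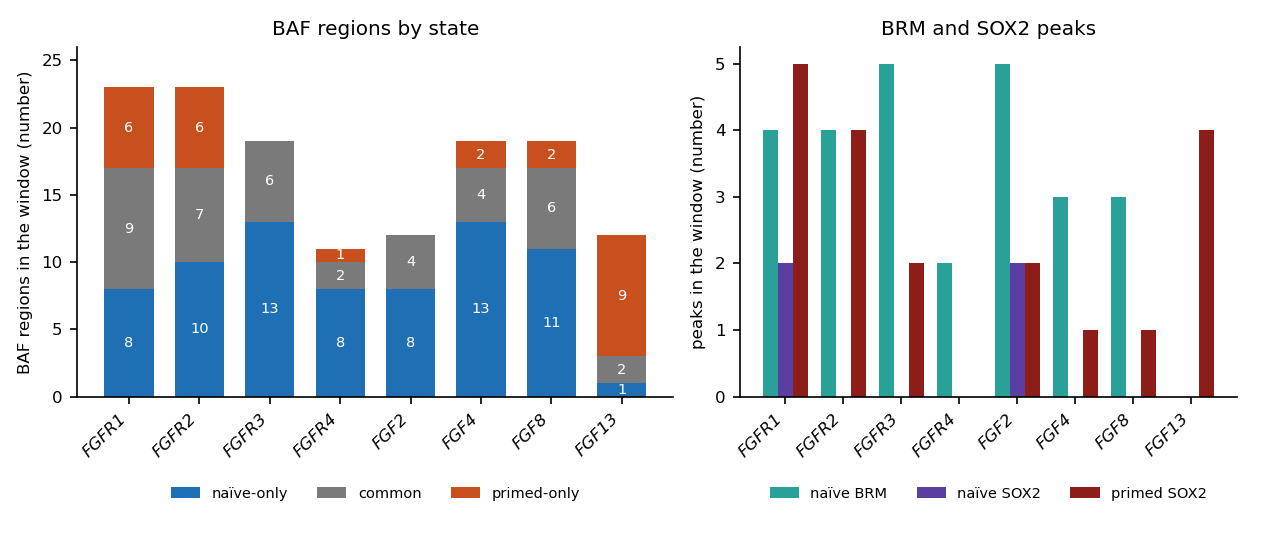
Number of BAF regions by class (left) and of naïve BRM, naïve SOX2 and primed SOX2 peaks (right) in the window of each FGF locus, without replicates. FGFR3 and FGF4 have 13 naïve-only regions each, while FGF13 has 9 primed-only regions and 1 naïve-only region.

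Of the BAF regions at the loci 72 were naïve-only, 26 primed-only and 40 common. At 7 of the 8 loci naïve-only regions were more numerous, against 66.1% of all coding windows, and FGF13 was the locus with more primed-only regions, as found for 21.2% of windows. Naïve-only regions made up 73.5% of the 98 state-specific regions (exact Clopper-Pearson 95% interval 63.6 to 81.9%, for counting error alone), against 61.4% over the genome. By locus this share ran from 10.0% (FGF13) to 100% (FGFR3 and FGF2). The interval takes regions as independent, and the loci were selected on these lists, so it is no test of the difference from the genome. The median difference between naïve-only and primed-only regions was 7.5 for the members and 2 for all windows.

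This balance changed with list length and threshold. With equal numbers of top-ranked peaks in both states the loci held 43 naïve-only and 30 primed-only regions (58.9%). Naïve-only regions were then more numerous at 6 loci (51.3% of all windows) and primed-only regions at 2 (33.2% of all windows). With a fold over input of at least 4 the direction turned, to 2 naïve-only and 15 primed-only regions (11.8%). Of all windows 12.8% then had more naïve-only and 39.9% more primed-only regions. Median folds of the whole BRG1 and BAF155 lists were 2.93 and 2.89 in naïve and 3.54 and 3.28 in primed cells. The cut is therefore not an equal one for the 2 states. Across 12 processing alternatives the difference stayed positive at FGFR3 (1 to 14) and negative at FGF13 (-9 to -1), while at FGFR1 it was negative in 8 and positive in 4.

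**Figure D2:**
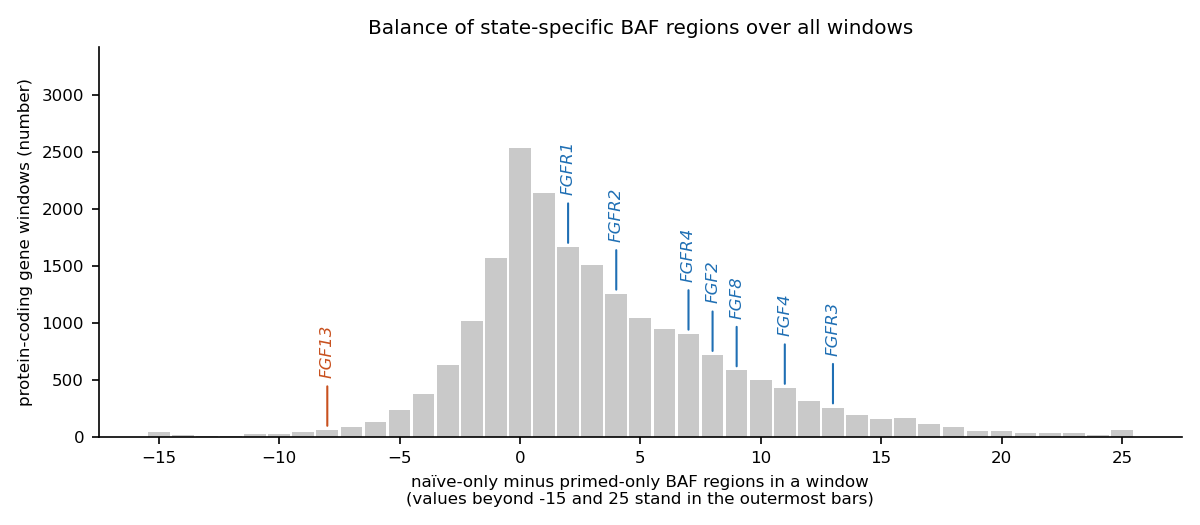
Histogram of naïve-only minus primed-only BAF regions over the windows of 20033 protein-coding genes, with the 8 FGF loci marked. FGF13 stands at -8 in a window of 728 kb, with 0.764% of windows lower and no correction for length, and the other 7 loci stand between 2 and 13.

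Common regions at the loci had a median width of 1630 bp (1113 bp over the genome), naïve-only regions of 438 bp and primed-only regions of 458 bp. Of the common regions 22 of 40 (55.0%) had their midpoint at most 1 kb from a transcription start, compared with 7 of 72 regions of the naïve-only class (9.72%) and 3 of 26 of the primed-only class (11.5%). Over the genome these shares were 52.2%, 13.7% and 14.6%, so the pattern is a general one. Each member had a BAF region over an annotated start of its own, a common one in every case. FGFR3 had in addition a naïve-only region over an internal start. The members have from 2 (FGF2) to 47 (FGFR1) annotated starts, and the share of all coding genes with such a region was not counted. Naïve BRM peaks overlapped 14 of 40 common regions (35.0%) and 11 of 72 naïve-only regions (15.3%), near the genome-wide 32.0% and 14.2%.

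Naïve BAF regions overlapped all 26 BRM peaks (100%, with an interval from 86.8 to 100%, against 94.3% of the whole list) and all 4 naïve SOX2 peaks. Primed BAF regions overlapped 18 of 19 primed SOX2 peaks (94.7%, with an interval from 74.0 to 99.9%, against 88.4% of the whole list), and 9 of 19 overlapped a naïve one (47.4%, against 41.6% of the list). Primed SOX2 peaks overlapped 10 of 40 common regions (interval 12.7 to 41.2%), against 3885 of 27753 over the genome, and 6 of 26 primed-only regions (23.1%, interval 8.97 to 43.6%), against 13.4% over the genome. They overlapped none of the 72 naïve-only regions, an upper limit of 4.99% by the same interval, against 0.434% over the genome. The shares of BRM and primed SOX2 peaks in BAF regions fell to 30.8% and 21.1% with an overlap of at least 50% of both. A narrow peak wholly inside a wide region fails this rule. Median widths were 318 bp for BRM and 297 bp for primed SOX2 over the lists, and 1630 bp for common regions of the loci. The shares of the whole lists under this rule were not counted.

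**Figure D3:**
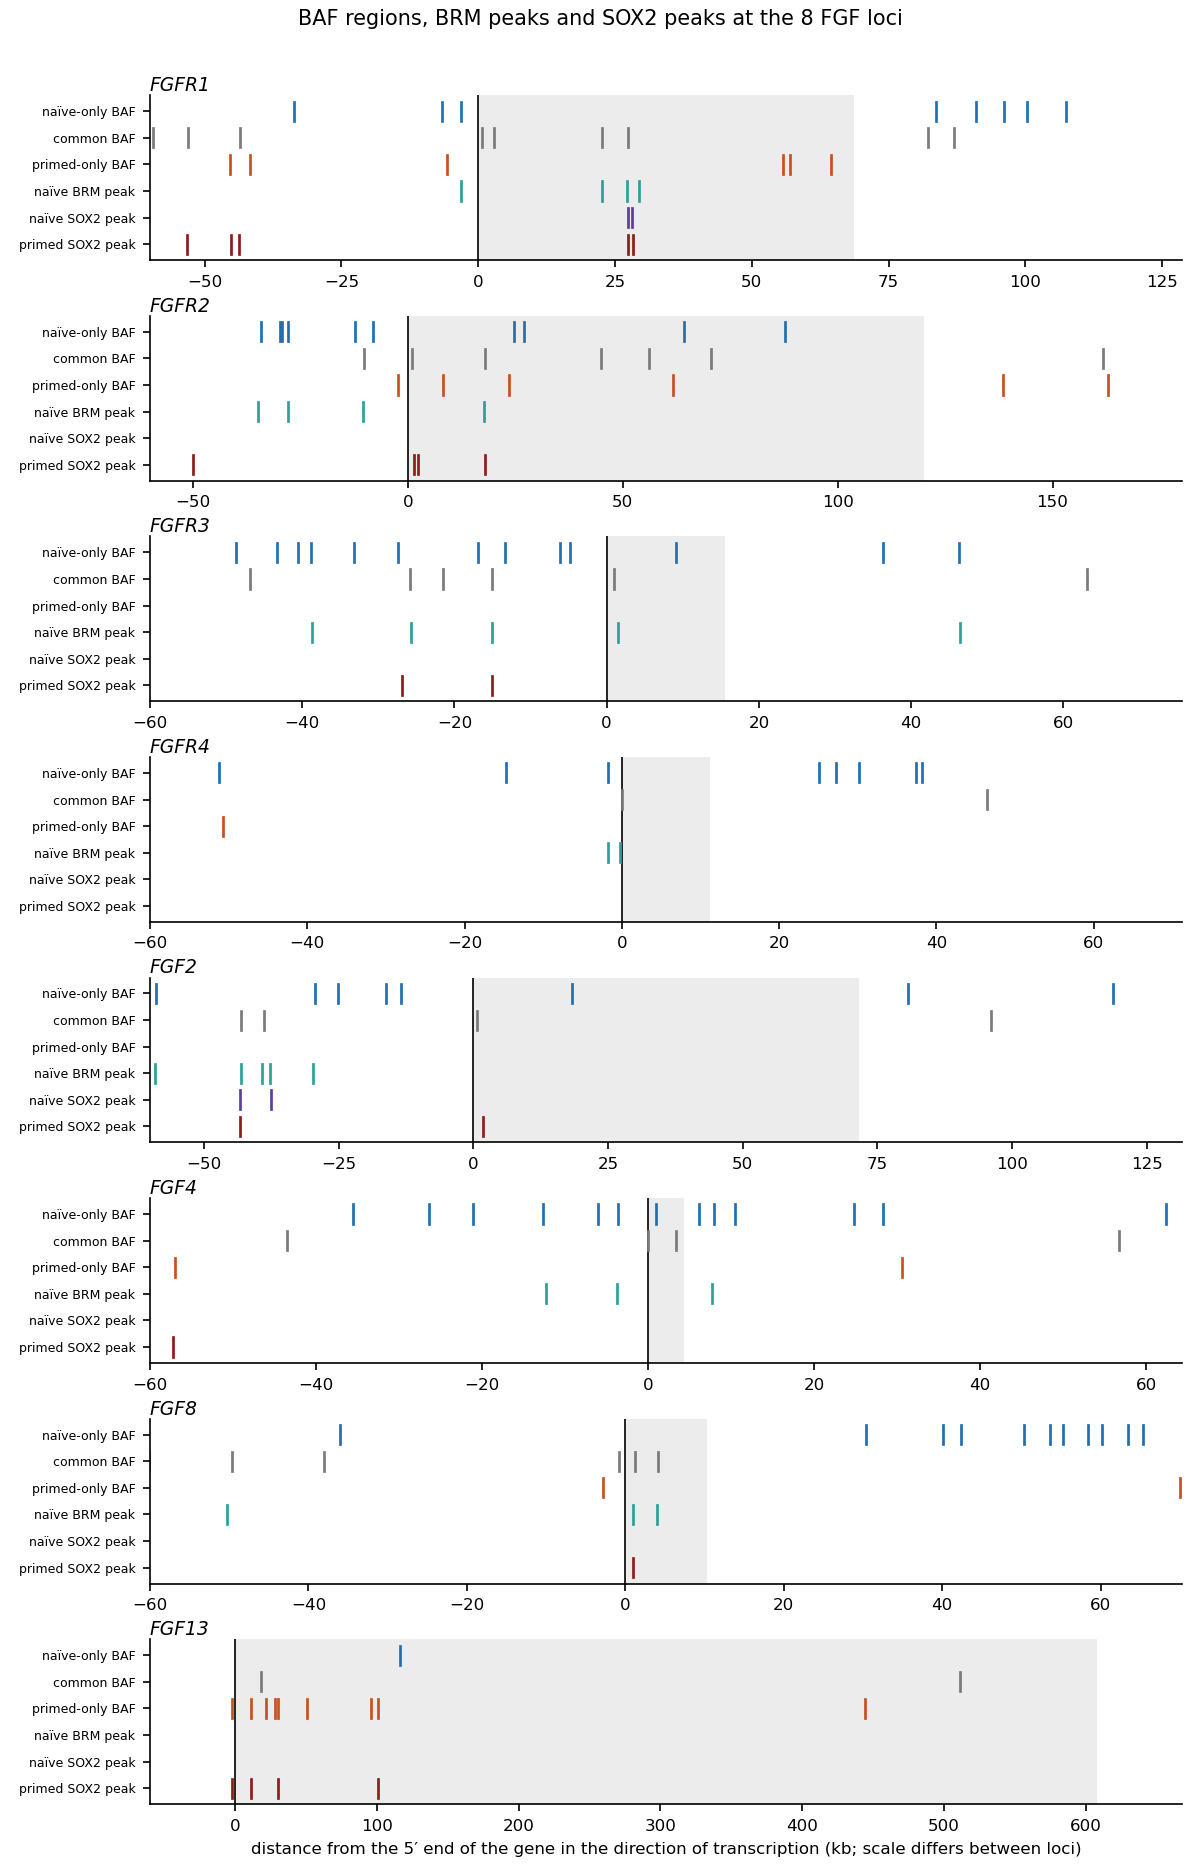
Position of BAF regions by class and of BRM and SOX2 peaks at each FGF locus, as distance in kb from the 5′ end of the gene (black line) in the direction of transcription; grey marks the gene body and each tick 1 region or peak. The 9 primed-only regions of FGF13 stand in the gene body and just upstream, and the 2 SOX2 peaks of naïve FGFR1 stand inside the gene over 2 of its 5 primed peaks.

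FGFR1 encodes the receptor most associated with the response of hESCs to FGF2. The gene lies on chromosome 8 from 38400215 to 38468834 on the minus strand, and its window also holds NSD3 and LETM2. It held 17 naïve BRG1, 12 naïve BAF155, 4 BRM, 4 primed BRG1 and 15 primed BAF155 peaks, which formed 9 common, 8 naïve-only and 6 primed-only BAF regions. Of the naïve-only regions 5 lay downstream, at NSD3 and LETM2, and when regions nearest to another coding gene were left out, 3 naïve-only and 5 primed-only regions remained at FGFR1.

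The primed SOX2 site of highest fold in the whole list was 794 bp wide with its summit at position 38440755 of chromosome 8. It had a fold over input of 39.5 and a −log10 q of 128. It lay in intron 2 of the main transcript, 28.0 kb downstream of its start and 9.77 kb from the nearest annotated FGFR1 start. A naïve SOX2 peak at chr8:38440593-38440832 had its summit 26 bp away, with a fold of 6.93 and rank 1071 of 1940. Folds of the 2 lists come from different libraries and were not compared. A further pair stood nearby, a primed peak at chr8:38441252-38441721 (fold 3.65, rank 9144 of 9290) and a naïve peak at chr8:38441439-38441656 (fold 7.07, rank 987), with summits 96 bp apart. The site was thus called in both states, at rank 1 in the primed list.

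Both SOX2 sites of the intron lay in a common BAF region at chr8:38439203-38443611. Its highest folds were 2.98 for naïve BRG1, 3.26 for naïve BAF155, 4.74 for primed BRG1 and 5.61 for primed BAF155. The 4.74 and 5.61 were the highest primed folds at the locus, and the region also held 2 of the 4 BRM peaks, including the one of highest fold (4.01). The common region over the main start, chr8:38467150-38469166, had folds of 2.94 for naïve BRG1, 2.56 for naïve BAF155, 3.68 for primed BRG1 and 3.22 for primed BAF155. The naïve fold was highest, 3.42 for BRG1, in a common region 53.1 kb from the nearest start (chr8:38521433-38522342). The other 3 primed SOX2 peaks lay 43.8 to 53.2 kb from the nearest FGFR1 start in LINC03042, a long non-coding RNA upstream of FGFR1, with folds of 7.25, 5.41 and 5.24. The next SOX2 peak beyond the window was 61.9 kb upstream of the gene body and was called in both states, with folds of 18.3 in primed and 11.5 in naïve cells.

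**Figure D4:**
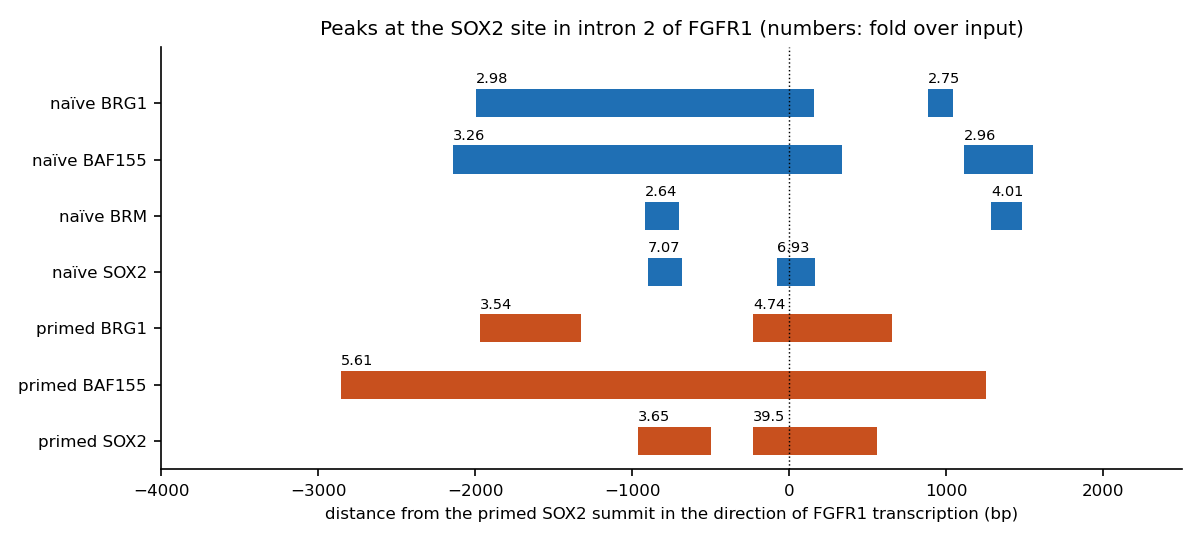
Peaks of the 7 lists around the summit of the highest primed SOX2 peak, in bp in the direction of FGFR1 transcription; bars are peaks and numbers their fold over input. The primed SOX2 peak (39.5) and a naïve SOX2 peak (6.93) overlap at the summit, and both overlap BRG1 and BAF155 peaks of both states.

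FGFR2 encodes a receptor with splice forms that differ in ligand choice between epithelial and mesenchymal cells. The gene spans chr10:121478332-121598458 on the minus strand with no other coding gene in its window. It held 12 naïve BRG1, 14 naïve BAF155, 4 BRM, 3 primed BRG1 and 13 primed BAF155 peaks, in 10 naïve-only, 6 primed-only and 7 common regions. The naïve-only regions lay mostly upstream (6 of 10), and the one of highest fold, 3.95 for BAF155, stood at an internal start at chr10:121510499-121510732. The highest primed fold was 4.41 for BAF155, in a primed-only region in intron 2 (chr10:121590130-121590586).

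All 4 SOX2 peaks of FGFR2 were primed. The strongest, chr10:121596724-121597123, had a fold of 11.1 and rank 1356, and stood in intron 1, 0.112 kb from an annotated start. A second one beside it, chr10:121595975-121596237, had a fold of 6.26, and both lay in the common region chr10:121595743-121599064 that covers the main start (folds 3.46 for naïve BRG1, 2.90 for naïve BAF155, 4.11 for primed BRG1, 4.08 for primed BAF155). The peak at chr10:121580282-121580705 in intron 2 had a fold of 7.71 and overlapped a BRM peak. The peak at chr10:121648283-121648496, 49.9 kb upstream (fold 6.56), was the primed SOX2 peak outside any primed BAF region. Its SOX core lay 2 bp from the summit.

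The sequences below are 120 bp of hg38, plus strand, centred on the summit of the SOX2 peak of highest fold at a locus, or of a site called in both states. Capitals mark a SOX core (CATTGT or CTTTGT on either strand) or an octamer (ATGCNAAT on either strand), and the octamer was added after the data were seen. The FGFR2 and FGFR3 windows hold neither. The FGFR3 window, chr4:1778162-1778281, belongs to the upstream site described next, and the FGFR2 window is chr10:121596812-121596931.
FGFR2 intron 1, primed: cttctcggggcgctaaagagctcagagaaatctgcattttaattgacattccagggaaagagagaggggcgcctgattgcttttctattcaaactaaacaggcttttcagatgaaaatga
FGFR3 upstream, primed: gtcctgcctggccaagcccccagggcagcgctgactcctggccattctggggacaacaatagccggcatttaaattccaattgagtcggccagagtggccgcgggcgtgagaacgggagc

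FGFR3 encodes a receptor known for its part in the growth plate of bone. The gene spans chr4:1793293-1808872 on the plus strand between TACC3 and LETM1. Its 18 naïve BRG1, 13 naïve BAF155 and 5 BRM peaks, with 4 primed BRG1 and 6 primed BAF155 peaks, gave 13 naïve-only, 6 common and no primed-only regions, a difference that 4.90% of all windows exceeded. Of the 13 naïve-only regions 10 lay upstream. The highest fold stood at a LETM1 start at chr4:1839290-1839892 (5.17 for BRG1, 4.27 for BAF155), followed by chr4:1754058-1754809 (4.83 and 4.52), 38.9 kb upstream, and each overlapped a BRM peak. With regions nearest to another coding gene left out, 5 naïve-only regions remained.

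The main SOX2 site of FGFR3, chr4:1778054-1778425, lay 15.1 kb upstream with a fold of 9.63 and rank 1963. It stood in the common region chr4:1777630-1778751, which had the highest BAF155 folds of both states among the BAF regions of the 8 loci, 4.87 in naïve and 5.86 in primed cells, with BRG1 at 4.63 and 3.62 and a BRM peak. SOX2 was called there in primed cells alone. A weaker primed SOX2 peak at chr4:1766275-1766601 (fold 4.79) was the one SOX2 peak of the loci with a match to the OCT4-SOX2 composite element, allowing 2 mismatches, 28 bp from its summit. The common region over the start, chr4:1792598-1796036, had folds of 3.72 and 4.24 for naïve BRG1 and BAF155 and 3.40 and 4.17 for primed BRG1 and BAF155.

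FGFR4 encodes the receptor that responds to FGF19 in liver. The gene spans chr5:177086905-177098144 on the plus strand, between ZNF346 and NSD1. It held 6 naïve BRG1, 8 naïve BAF155, 2 BRM, 4 primed BRG1 and 3 primed BAF155 peaks, in 8 naïve-only, 1 primed-only and 2 common regions. The common region over the start, chr5:177086269-177087700, had folds of 3.33, 3.39, 3.32 and 4.43 for naïve BRG1, naïve BAF155, primed BRG1 and primed BAF155, and both BRM peaks stood within 2 kb of an FGFR4 start, with a highest fold of 3.59. The single primed-only region overlapped a naïve-only one by less than 25%, so that both were counted. No SOX2 peak lay in the window, and the nearest in either state was 143 kb upstream of the gene.

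FGF2, the ligand added to primed medium, spans chr4:122826682-122898236 on the plus strand. Its 6 naïve BRG1, 10 naïve BAF155, 5 BRM, 4 primed BRG1 and 4 primed BAF155 peaks formed 8 naïve-only, 4 common and no primed-only regions. The window also holds NUDT6 and SPATA5. With regions nearest to another coding gene left out, 5 naïve-only and 3 common regions remained. All 5 BRM peaks lay upstream of the gene, with a highest fold of 3.13, and none over the start. SOX2 met BAF of both states at an upstream pair of common regions, and was itself called in both states only at the first. The first, chr4:122782452-122784805, had folds of 3.50, 3.54, 4.50 and 4.30 for naïve BRG1, naïve BAF155, primed BRG1 and primed BAF155. It held a SOX2 site called in both states, chr4:122783311-122783542 in primed (fold 6.38, rank 5280) and chr4:122783298-122783530 in naïve cells (fold 4.24, rank 1896), with summits 52 bp apart, 43.3 kb from the nearest FGF2 start.

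The second, chr4:122786281-122789573, held 2 BRM peaks and a SOX2 peak called in naïve cells alone, chr4:122788940-122789342, with a fold of 8.37 and rank 668. This was the highest naïve SOX2 fold at the 8 loci and the one naïve SOX2 peak without a primed partner. In primed cells the SOX2 peak of highest fold stood within the gene instead, at chr4:122828363-122828668 in intron 1, 1.68 kb from the start (fold 12.7, rank 854). It lay at the edge of the common region over the start, chr4:122826224-122828706, whose part called in primed cells contained it and whose naïve part did not. SOX2 peaks of FGF2 stood 37.5 to 43.3 kb upstream in naïve cells and at 43.3 and 1.68 kb in primed cells.

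Sequences of the 3 FGF2 sites are shown to compare them. The intron 1 window, chr4:122828467-122828586, holds a SOX core followed on the same strand by an octamer 6 bp further, the site called in both states (chr4:122783345-122783464) holds neither, and the naïve-only site (chr4:122789051-122789170) holds neither in these 120 bp.
FGF2 intron 1, primed: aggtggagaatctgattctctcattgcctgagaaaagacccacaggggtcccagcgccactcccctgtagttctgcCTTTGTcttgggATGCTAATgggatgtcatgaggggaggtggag
FGF2 upstream, both states: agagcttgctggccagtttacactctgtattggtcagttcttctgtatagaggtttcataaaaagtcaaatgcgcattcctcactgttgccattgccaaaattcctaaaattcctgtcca
FGF2 upstream, naïve: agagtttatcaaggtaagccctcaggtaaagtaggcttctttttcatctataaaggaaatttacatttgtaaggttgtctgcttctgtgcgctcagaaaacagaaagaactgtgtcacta

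FGF4, the ligand that embryonic epiblast cells make themselves, spans chr11:69771022-69775341 on the minus strand, with FGF3 in its window. It held 16 naïve BRG1, 11 naïve BAF155, 3 BRM, 2 primed BRG1 and 6 primed BAF155 peaks. These formed 13 naïve-only, 2 primed-only and 4 common regions, and 10 naïve-only regions and 1 primed-only region were nearest to FGF4 itself. The naïve-only region of highest fold lay upstream at chr11:69787310-69788697 (3.40 for BRG1 and 3.44 for BAF155, 12.7 kb from the start, with the BRM peak of highest fold, 3.25). The next stood downstream at chr11:69750413-69750576 (3.28 for BRG1, 24.7 kb), followed by chr11:69777843-69780008 upstream (3.20 and 3.22, 3.58 kb, with a BRM peak). The common region over the start, chr11:69774825-69775913, had folds of 2.90, 2.76 and 2.99 for naïve BRG1, naïve BAF155 and primed BAF155 and no primed BRG1 peak. The highest primed fold of the locus, 4.27 for BAF155, belonged to a primed-only region 30.5 kb downstream (chr11:69744544-69744866).

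A further common region, chr11:69771531-69772323, lay in exon 3, over the 3′ untranslated part of FGF4 where the SOX2 and OCT4 enhancer is known. It was called at a fold of 4.18 for primed BAF155, against 3.75 as the next highest primed BAF155 fold in a common region of the locus, and at 2.36 and 2.44 for naïve BRG1 and BAF155, below those of the other 3 common regions. No SOX2 peak of either list overlapped it. A SOX core and an octamer stood 4 bp apart on the strand of the gene at chr11:69771677-69771694. Such a pair, within 6 bp on 1 strand, was found in 2 of the 40 common regions of the loci. These were FGF4 exon 3 and FGF2 intron 1, and the share of common regions over the genome was 0.241%. The search was made after the data were seen, and its limit of 6 bp equals the FGF2 gap, so enrichment was not tested. Common regions of the loci were also wider (median 1630 against 1113 bp). In 200 bp at region midpoints the pair stood in 0 of 40, against 0.0901% over the genome. The 30 bases around the FGF4 pair read as follows on the strand of FGF4.
FGF4 exon 3: aaaactCTTTGTtcgaATGCAAATcatcga

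The one SOX2 peak of the FGF4 window was primed and far upstream, chr11:69832462-69832686, with a fold of 6.94. It stood 57.2 kb from FGF4 and 13.2 kb from the start of FGF3, in a primed-only BAF region, and a SOX core lay 4 bp from its summit (window chr11:69832476-69832595).
FGF4 upstream, primed: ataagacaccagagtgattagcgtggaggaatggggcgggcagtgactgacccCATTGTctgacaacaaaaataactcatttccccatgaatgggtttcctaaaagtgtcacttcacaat

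FGF8, a ligand of gastrulation and of early brain patterning, spans chr10:101770109-101780371 on the minus strand, and its window also holds NPM3, OGA and KCNIP2. It held 15 naïve BRG1, 13 naïve BAF155, 3 BRM, 1 primed BRG1 and 8 primed BAF155 peaks, in 11 naïve-only, 2 primed-only and 6 common regions. The naïve-only regions formed a row downstream, 10 of 11, of which 7 lay in the long non-coding RNA LINC03046 and 3 nearest to FGF8. With a flank of 20 kb, no difference between the classes remained at FGF8. Of the common regions 3 were nearest to FGF8. The one over the main start, chr10:101775667-101776739, had the highest naïve folds in the window (3.78 and 3.83 for BRG1 and BAF155), with 2.84 for primed BAF155 and a BRM peak of fold 3.58. The second, chr10:101778112-101780307, carried a peak of both subunits in each state. The third, chr10:101780845-101781390, lay 0.746 kb from an FGF8 start (3.13, 3.78 and 3.63 for naïve BRG1, naïve BAF155 and primed BAF155). The highest primed fold of a peak in the window, 5.50 for BAF155, belonged to a common region at KCNIP2 that reaches over the window's edge (chr10:101839509-101841575). Peaks of this region beyond the edge had folds of 7.37 for primed BRG1 and 4.01 and 4.25 for naïve BRG1 and BAF155.

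In the common region chr10:101778112-101780307 stood the primed SOX2 peak chr10:101779188-101779503, with a fold of 5.78, 1.03 kb from the nearest FGF8 start, and over a BRM peak. The peak held no SOX core, and its summit window (chr10:101779253-101779372) held an octamer.
FGF8, primed: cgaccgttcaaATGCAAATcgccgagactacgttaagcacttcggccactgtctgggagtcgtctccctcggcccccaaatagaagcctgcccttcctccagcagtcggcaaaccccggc

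FGF13 encodes a family member that is not secreted and is known to bind sodium channels and microtubules in neurons. It spans chrX:138614727-139222777 on the minus strand, a gene of 608 kb with no other coding gene in its window. It held 3 naïve BRG1 and 4 naïve BAF155 peaks and no BRM or naïve SOX2 peak, with 5 primed BRG1, 11 primed BAF155 and 4 primed SOX2 peaks. Its window of 728 kb held 0.412 naïve BRG1 peaks per 100 kb, and 7.59% of windows had a lower density. Primed-only regions stood at 1.24 per 100 kb, with 56.9% of windows lower, and naïve-only regions at 0.137, with 11.1% lower, and the counts of regions are not corrected for this length. The naïve-only region had the highest naïve fold, 3.29 for BRG1. Of its 12 BAF regions 9 were primed-only, 1 was naïve-only and 2 were common, the latter over the start of the main transcript (chrX:138709796-138712352) and over distal starts of longer transcripts (chrX:139202639-139205743).

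The primed-only regions of FGF13 gathered near the distal starts, with 4 of 9 within 10 kb of one, and 4 of the 9 carried SOX2. The highest BAF fold, 5.01 for BAF155 and 3.84 for BRG1, was at chrX:139191708-139192783, with a SOX2 peak at chrX:139192346-139192601 (fold 5.92). The highest SOX2 fold was 9.82, at chrX:139211430-139211776, and the other 2 peaks, chrX:139121940-139122227 and chrX:139225016-139225273, had folds of 8.38 and 7.60. All 4 SOX2 peaks lay in primed-only regions, as did 1 of 5 at FGFR1 and the one at FGF4, and none at the other loci. Of those other loci, FGFR3 and FGF2 held no primed-only region. Over the genome 13.4% of primed-only regions overlapped a primed SOX2 peak. All 4 SOX2 peaks of FGF13 held a SOX core, and the window of the strongest (chrX:139211516-139211635) holds 2.
FGF13, primed: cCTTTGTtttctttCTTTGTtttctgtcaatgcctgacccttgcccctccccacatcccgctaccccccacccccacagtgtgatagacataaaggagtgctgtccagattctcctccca

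**Figure D5:**
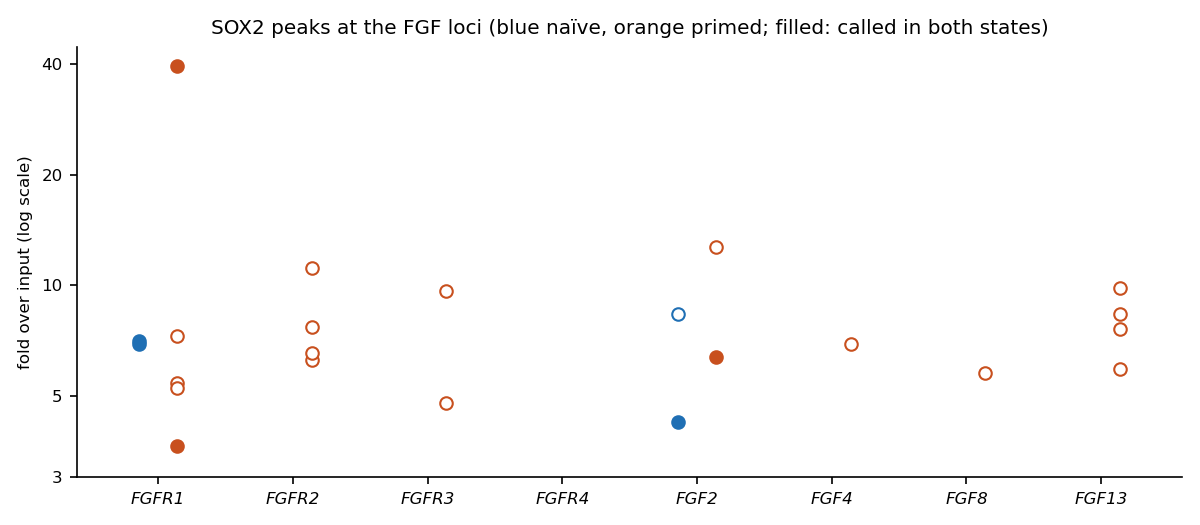
Fold over input of each SOX2 peak at the FGF loci on a log axis, blue for naïve and orange for primed cells, filled where the site was called in both states; each point is 1 peak of 1 list. One primed peak at FGFR1 stands at 39.5, and the other 18 primed peaks lie between 3.65 and 12.7.

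SOX cores were searched in all SOX2 peaks of the loci, since sequence was not used to select them. A core was found in 12 of 19 primed peaks (63.2%, interval 38.4 to 83.7%), against 69.2% of the whole primed list, and in 2 of 4 naïve peaks, against 66.2% of the naïve list. Within the 120 bp at the summit 10 of 19 primed peaks held one (52.6%), against 48.3% of the list, and windows of the same length 2 kb away held one in 15.6%. The composite element was found in 1 of 19 primed peaks (5.26%) and in 10.1% of the list. The intervals at the loci include the shares of the lists, so a difference was not detectable with this number of peaks. In 200 bp at region midpoints, SOX cores stood in 11 of 26 primed-only (42.3%), 14 of 72 naïve-only (19.4%) and 8 of 40 common regions (20.0%), against genome-wide shares of 34.9%, 22.3% and 18.2%.

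The other FGF genes were counted from a list of 26 ligands, co-receptors, adaptors and binding proteins, all of which matched a window. More naïve-only than primed-only regions were found at 13, more primed-only at 8 and equal numbers at 5. Over all coding windows 66.1% had more naïve-only and 21.2% more primed-only regions. The largest naïve excess was at FGF22 (19 naïve-only and 2 primed-only), FGF18 (15 and 2) and FRS3, which encodes an adaptor of the receptors (12 and 0). The largest primed excess was at FGF12 (5 and 11) and FGF14 (3 and 9), which are intracellular like FGF13, and at FGFBP3 (1 and 6), which encodes a carrier of secreted FGFs. FGF11, the remaining intracellular member, had 10 naïve-only regions and 1 primed-only region. The windows of FGF12 and FGF14 are long, 748 and 812 kb, against 127 kb for FGF11. These counts are not corrected for length, so length and protein class cannot be told apart here. Primed SOX2 peaks were present at 13 of the 26 genes, against 42.6% of all coding windows. Naïve SOX2 peaks were present at 2, FGF16 and FGF18, against 13.2% of windows. The windows of FGF3 and FGF19 overlap that of FGF4 and share regions with it.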

How the data were processed

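ChIP-seq peaks of BRG1, BAF155, BRM and SOX2 in naïve and primed WIBR3 cells were analysed. In the study's methods the authors trimmed reads, mapped them to hg38, removed duplicates and called peaks with MACS2 against input (Bowtie2 2.3.4, FastQC 0.10.1 and SAMtools 0.1.19 in the submitters' processing notes). The deposited lists give peak positions, a score, a fold enrichment over input (a linear ratio), −log10 p and −log10 q, all from the authors' peak caller. Their lowest −log10 q was 1.00 to 1.01 for BAF and 1.31 and 1.35 for SOX2. Primed BRM and the second SOX2 lists hold positions only. Whether SOX2 libraries were pooled is not given in the sources used here. SOX2 libraries were paired-end and BAF libraries single-end.

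Members and gene lists were chosen with earlier results of these data known. A peak was counted when at least 1 bp overlapped a window. The named sites of a member are its SOX2 peaks, the BAF region of highest fold per state, the region over its start and the BRM peak of highest fold. Other regions, such as FGF4 exon 3, and FGF11, FGF16, FGF3 and FGF19 were named after their values were seen. Motifs were searched in hg38 on both strands. Intervals are exact Clopper-Pearson (95%), for counting error alone. Peaks are not replicates and no test was made. Functions were tested on simulated data. Python 3.11.15, pandas 2.3.3, scipy 1.17.1 and pysam 0.24.0 were used. Alternatives were flanks of 20 and 100 kb, midpoints, −log10 q of at least 3, fold of at least 4, equal list lengths, overlap rules, single subunits, the second SOX2 list and motif windows. Sequence at 1 member is not reported here.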

Additional observations from a re-analysis of the deposited data

How the results depend on the processing

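No paired analysis was possible because the 2 SOX2 lists of a state are identical in coordinates and the other groups hold 1 library. Exchanging the 2 SOX2 lists left 4 naïve and 19 primed peaks. A flank of 20 kb left 46 naïve BRG1, 46 naïve BAF155, 15 BRM, 2 naïve SOX2, 17 primed BRG1, 42 primed BAF155 and 12 primed SOX2 peaks, 32 naïve-only and 23 common regions and a naïve-only share of 62.7%. A flank of 100 kb gave 41 primed-only regions. A −log10 q of at least 3 left 24 naïve BRG1, 24 naïve BAF155, 7 BRM, 5 primed BRG1 and 36 primed BAF155 peaks, 19 naïve-only and 13 common regions (45.2%). With this cut 2 loci had more naïve-only regions (39.2% of all windows) and 4 had more primed-only regions (35.8% of all windows). A fold of at least 4 left 3 naïve BRG1, 4 naïve BAF155, 3 BRM, 3 primed BRG1 and 18 primed BAF155 peaks, with 2 naïve-only, 15 primed-only and 3 common regions (11.8%). Equal list lengths left 24 naïve BRG1 and 4 primed SOX2 peaks, as many as the 4 naïve SOX2 peaks, and 43 naïve-only regions (58.9%). Overlap of 50% of both regions gave 43 primed-only and 23 common regions, and shares of 30.8% for BRM and 21.1% for primed SOX2 in BAF regions. BAF155 alone gave 47 naïve-only regions (61.0%), with equal lists, added after seeing the data, 39 (55.7%), and BRG1 alone 9 primed-only and 16 common regions (89.5%). Of all windows 54.3% had more naïve-only and 31.1% more primed-only regions with BAF155 alone, and 87.3% and 2.39% with BRG1 alone. Leaving out regions nearest to another coding gene, also added later, left 41 naïve-only regions.

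The difference of naïve-only and primed-only regions turned negative at FGFR1 with flanks of 20 and 100 kb (-1 in each), −log10 q (-3), fold (-4), equal lists (-3), BAF155 alone (-4, or -5 with equal lists) and regions nearest to FGFR1 alone (-2), at FGFR2 with −log10 q (-2) and fold (-4), at FGFR4 with both (-1), and at FGF2 and FGF4 with fold (-2). Fewer peaks pass a higher threshold by construction; other causes were not tested. These are 14 of the differences at single loci. A further 41 moved by over 1.5 times without a change of sign, and 41 stayed within that. Over all 12 alternatives the range was -5 to 14 at FGFR1, -4 to 9 at FGFR2, 1 to 14 at FGFR3, -1 to 7 at FGFR4, -2 to 8 at FGF2, -2 to 14 at FGF4, 0 to 14 at FGF8 and -9 to -1 at FGF13. The other counts and shares over all loci stayed within 1.5 times the reported count, or within its interval for a share. Read totals were not used here, and each group is 1 sample.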
